A study of Mus musculus with 22 samples.

Results

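The genes described here are 10 early targets and feedback genes of T cell receptor signalling: Egr1, Egr2, Egr3, Nr4a1, Nr4a3, Dusp1, Dusp2, Dusp4, Dusp5 and Dusp6. They were chosen by name and function with earlier results of these data known, and their symbols were matched to the deposited gene names. All 10 were found and passed the filter on low counts, among 21183 genes tested.

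When the T cell receptor is engaged, the Ras-ERK, JNK and p38 kinase cascades and calcineurin carry the signal to the nucleus. Factors that are already present, such as SRF with its ternary complex partners, CREB, NFAT and MEF2, then switch on immediate-early genes without new protein synthesis. EGR proteins are zinc-finger transcription factors, and NR4A proteins are orphan nuclear receptors whose activity follows their amount. The DUSP genes encode dual-specificity phosphatases that remove phosphate from MAP kinases and so act as feedback on the same cascades. In T cells, Nr4a1 (Nur77) is widely used as a reporter of receptor signalling, and Egr2, Egr3 and the NR4A factors are known for restraining activated cells.

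RNA was sequenced in bulk from mouse CD8+ T cells, the cytotoxic lineage. The groups differ at Tcaim, a gene that the series title links to contacts between mitochondria and the ER: 3 mice carry a KI, 2 mice a KO and 3 mice are wt. Spleen and lymph node cells were depleted magnetically of other types to leave naive CD8+ cells, which were sequenced at once or after stimulation. Stimulation was with 2 µg/ml plate-bound anti-CD3 and 1 µg/ml soluble anti-CD28, antibodies against the receptor complex and a costimulatory receptor. KI and wt cells were taken naive, at 24 h and at 48 h, and KO cells naive and at 48 h, which gave 22 libraries in 8 groups. No time between naive and 24 h was taken, so changes in the first hours of stimulation are not seen here. KI mice have the line label Tcaim KI Cd4Cre with genotype hocre, wt mice the same line with genotype wtcre, and KO mice the line Tcaim KO Cd4Cre with genotype hocre. Cd4-Cre lines express Cre recombinase from the Cd4 promoter, which is active in developing T cells. The labels do not spell out what the wt mice carry, no wt mice of the KO line were analysed here, and age is not given. Each mouse gave 1 library per time point, and 3 experiments (1, 3 and 5) each held 1 KI and 1 wt mouse, with a KO mouse in experiments 1 and 5. KI and wt mice were male in experiments 1 and 3 and female in experiment 5, so sex and experiment cannot be told apart among them. Both KO mice were female.

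Library totals ran from 62551905 to 93489115 counts, and the counts of the 10 genes from 210 (Dusp4, a naive KI library) to 46559 (Nr4a3, a wt library at 48 h). Levels are given as CPM, counts scaled to a common library total after TMM normalisation. Tcaim stood at 138 to 260 CPM in KI libraries and at 8.38 to 15.2 CPM in wt libraries. Libraries labelled KO held 5.99 to 19.6 CPM and did not pass the test for a difference from wt at either time (log2 difference 0.21 ± 0.204 SE naive, adjusted p = 1, and -0.19 ± 0.208 at 48 h, adjusted p = 0.841). Which part of the gene was deleted is not given in the sources used here. CD8 T cell markers (7 genes, among them Cd8a, Cd8b1 and Cd3e) summed to 3132 to 6331 CPM, and none of the 7 was at 0 in any library. Summed markers of other cells were mostly lower after stimulation. The 7 myeloid markers summed to 118 to 340 CPM in naive and 38.3 to 83.2 CPM in stimulated libraries, the 6 B cell markers to 140 to 1219 and 34.2 to 252 CPM, and the 3 NK cell markers to 14.7 to 107 and 0.579 to 4.56 CPM. Those of CD4 T cells overlapped between times. S100a8 and S100a9 were at 0 in 5 libraries each. The naive KO library of experiment 1 held the highest B cell sum (1219 CPM) and the highest CD4 T cell sum (236 CPM). The part of other cells in the changes with stimulation below was not tested, and in bulk RNA fewer cells of a type and less RNA per cell cannot be told apart.

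Promoter windows were read to show which letters of known signal-responsive elements lie near the starts of these genes. Windows of 250 bases before a RefSeq (GRCm38.p6) start were read for 7 of the 10 genes. The stretches below end before any annotated exon. The search, on both strands, covered the CArG box bound by SRF, the cAMP response element TGACGTCA and its short form TGACG (which also lies inside the full element), the EGR element GCGNGGGCG, the NR4A element AAAGGTCA, the AP-1 element TGANTCA and the ETS element CCGGAAGT. The 4 windows with more than 1 match are shown 5′ to 3′ on the gene's strand, with the matches in capitals.
Nr4a1 (chr15:101266596-101266845, plus strand): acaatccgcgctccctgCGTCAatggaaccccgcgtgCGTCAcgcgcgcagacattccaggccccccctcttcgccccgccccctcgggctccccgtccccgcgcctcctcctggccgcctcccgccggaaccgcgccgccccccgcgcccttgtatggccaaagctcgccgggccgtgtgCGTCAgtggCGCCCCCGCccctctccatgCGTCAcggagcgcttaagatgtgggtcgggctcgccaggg
Nr4a3 (chr4:48045055-48045152, plus strand): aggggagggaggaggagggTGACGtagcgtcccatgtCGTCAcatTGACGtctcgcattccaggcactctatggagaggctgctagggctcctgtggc
Dusp1 (chr17:26508520-26508722, minus strand): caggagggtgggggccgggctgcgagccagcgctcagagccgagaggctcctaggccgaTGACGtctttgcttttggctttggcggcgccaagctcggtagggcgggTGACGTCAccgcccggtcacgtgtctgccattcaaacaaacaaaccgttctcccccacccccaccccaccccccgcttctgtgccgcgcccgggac
Dusp5 (chr19:53528895-53529108, plus strand): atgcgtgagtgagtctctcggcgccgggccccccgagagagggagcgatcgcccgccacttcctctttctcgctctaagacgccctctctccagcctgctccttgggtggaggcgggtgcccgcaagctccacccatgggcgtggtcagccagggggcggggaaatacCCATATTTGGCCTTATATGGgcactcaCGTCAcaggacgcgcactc
The Nr4a1 stretch held TGACG at 4 places and 1 EGR element, and it precedes a RefSeq start that lies 12577 bases inside the gene as listed in the files. The Nr4a3 stretch held TGACG at 3 places. The Dusp1 stretch held 1 full TGACGTCA and a separate TGACG, and Dusp5 held 2 adjacent CArG boxes and 1 TGACG. Dusp2 held 1 EGR element, and no match was found in the Egr2 or Dusp6 stretches. Egr2 had 5 RefSeq starts, and only the window of the start nearest to its listed position was read. Of all 32851 promoter windows of 250 bases, 1.47% held a CArG box, 1.55% TGACGTCA, 17.8% TGACG, 4.7% the EGR element, 1.34% the NR4A element, 6.75% the AP-1 element and 2.88% the ETS element. These shares are of full windows, while some of the stretches were cut shorter at an exon, that of Nr4a3 to 98 bases. The full Nr4a3 window held TGACG at 4 places. A match shows letters only, not binding.

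Of all 21183 tested genes, 10233 passed the test in wt cells at 24 h against naive and 11929 at 48 h. How many did so at either time was not computed. Of the 10 members, 8 passed at 24 h or 48 h, in both directions. EGR and NR4A genes were among those called higher and none of them lower, with Egr1 called in neither direction, while of the phosphatases Dusp4 was higher, Dusp1, Dusp2 and Dusp6 lower and Dusp5 not called (called means an adjusted p under 0.05 in edgeR's quasi-likelihood test across all genes). At 24 h against naive, 3 of 10 were called higher (Egr2, Egr3, Nr4a3) and 2 lower (Dusp1, Dusp2), and the median log2 fold change was 0.091 against -0.0479 over all tested genes. Of all tested genes 26.3% were called higher and 22% lower, so the members' shares lay near the background. Upper-quartile scaling took the share of higher among all calls at 24 h from 54.5% to 42.6%. At 48 h, 4 were called higher (Egr3, Nr4a1, Nr4a3, Dusp4) and 3 lower (Dusp1, Dusp2, Dusp6), where the background was 29.5% higher and 26.8% lower. Between 24 h and 48 h, Nr4a3 and Dusp4 were called higher and no member lower, with 4.08% and 3.41% of all genes called in those directions (4 members with DESeq2 or a replicate block for mouse). That background of 1587 genes became 134 without wt replicate 1, 527 without wt replicate 5, 350 with only the compared groups and 2465 with DESeq2. Upper-quartile scaling moved the median of all genes at 48 h to -0.259 and the share of calls that were higher from 52.5% to 41.7%. The members called in wt cells at 24 h or 48 h kept their direction under it.

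In KI cells at 24 h, 3 members were called higher (Egr2, Egr3, Nr4a3) and 3 lower (Dusp1, Dusp2, Dusp5), against 22.9% and 15.8% of all genes. Upper-quartile scaling took the share of higher calls there from 59.2% to 44.9%. At 48 h, 5 were called higher (Egr2, Egr3, Nr4a1, Nr4a3, Dusp4) and 3 lower (Dusp1, Dusp2, Dusp5), against 26.6% and 22.1%, and that scaling took the share of higher calls from 54.6% to 42.9%. From 24 h to 48 h, Nr4a3 was called higher and no other member was called in either direction, against 1.71% higher and 0.968% lower in all genes. In cells labelled KO at 48 h, 3 were called higher (Egr3, Nr4a3, Dusp4) and 3 lower (Dusp1, Dusp2, Dusp6), against 23.6% and 20.4%. With only the 4 KO libraries in the fit, 3 of these 6 KO calls were made, and upper-quartile scaling took the share of higher calls over all genes from 53.7% to 43.1%.

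**Figure D1:**
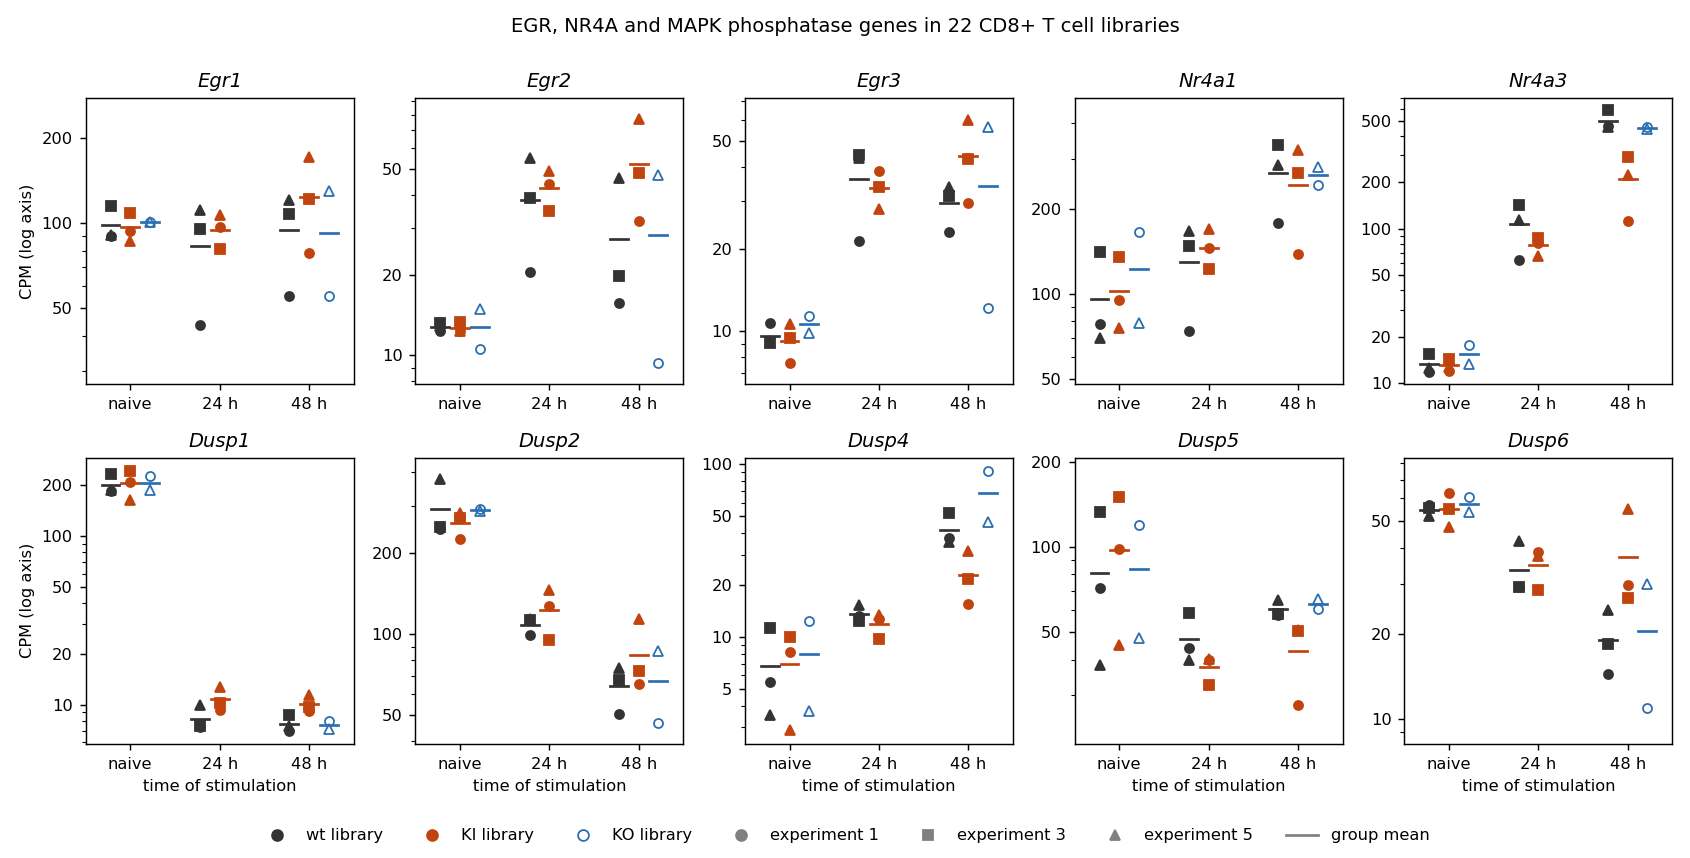
CPM on log axes for the 10 genes in every library, by time of stimulation (naive, 24 h, 48 h), with 1 point per library, shape for the experiment, colour for the genotype and a bar for the group mean. Nr4a3 climbs from 11.8 to 17.6 CPM in naive libraries to 442 to 586 CPM in wt and KO libraries at 48 h and 113 to 292 CPM in KI libraries, while Dusp1 drops from 164 CPM or more to 12.7 CPM or less.

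Among the EGR factors, Egr1 (ENSMUSG00000038418), the zinc-finger factor best known as a serum- and receptor-induced gene, was already abundant in naive cells. Wt cells of experiments 1, 3 and 5 held 90.3, 115 and 91.2 CPM naive, 43.6, 95.4 and 111 CPM at 24 h and 55.3, 108 and 121 CPM at 48 h. The stimulated libraries overlapped the naive ones, and Egr1 was called in none of the comparisons made here (wt 48 h against naive -0.064 ± 0.346 on the log2 scale, adjusted p = 0.886). Naive KI cells held 94.1, 109 and 86.7 CPM, which compares with 96.9, 80.8 and 107 CPM at 24 h and 78.3, 122 and 171 CPM at 48 h, so that the spread between experiments widened with time while the group means stayed close.

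Egr2 (ENSMUSG00000037868, chromosome 10, 67535475 to 67542188), which limits T cell activation and is needed for some innate-like T cells, began low and even. Naive wt libraries held 12.4, 13.2 and 12.9 CPM and naive KI libraries 12.4, 13.4 and 12.4 CPM. At 24 h, wt libraries held 20.5, 39.1 and 55 CPM and KI libraries 43.9, 34.7 and 49.1 CPM. Each stimulated library of these genotypes exceeded every naive library, and Egr2 rose in wt (log2 change 1.57 ± 0.48, adjusted p = 0.0113) and in KI cells (1.74 ± 0.482, adjusted p = 0.00777). Those calls were lost without wt replicate 3 or 5 (adjusted p = 0.0718 and 0.0729) and without KI replicate 1 or 5 (0.0571 and 0.0547). At 48 h wt libraries stood at 15.7, 19.8 and 46.3 CPM and KI libraries at 31.9, 48.3 and 76.8 CPM. KI cells again passed the test against naive (2.04 ± 0.487, adjusted p = 0.00202), and wt cells did not (1.09 ± 0.475, adjusted p = 0.0594), although they did with a replicate block for experiment (0.0331) or mouse (0.0361). The difference between these responses was itself not called (0.95 ± 0.666, adjusted p = 0.714).

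Egr3 (ENSMUSG00000033730, chromosome 14, 70077203 to 70082614), a close relative of Egr2 with overlapping roles in lymphocytes, followed a like course. Wt values were 10.7, 9.05 and 9.12 CPM before stimulation, 21.4, 44.5 and 43.2 CPM at 24 h, and 23.2, 31.3 and 34 CPM at 48 h. KI libraries held 7.65, 9.44 and 10.6 CPM naive, 38.9, 33.9 and 28.2 CPM at 24 h, and 29.6, 42.8 and 59.9 CPM at 48 h. Egr3 rose at both times in both genotypes with no overlap of the groups. In wt cells the 24 h change was 1.92 ± 0.393 (adjusted p = 0.000558) and the later one 1.62 ± 0.39 (adjusted p = 0.00173). The KI rises were 1.87 ± 0.393 (adjusted p = 0.000956), then 2.26 ± 0.397 (adjusted p = 0.000132). All 4 calls were made under each of the 12 alternatives tried. The KO libraries at 48 h differed widely, with 12.2 CPM in experiment 1 and 56.2 CPM in experiment 5, against 11.4 and 9.84 CPM naive. The rise called in KO cells (1.69 ± 0.477, adjusted p = 0.008) was lost without KO replicate 5 (adjusted p = 0.902).

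Of the orphan nuclear receptors, Nr4a1 (ENSMUSG00000023034, chromosome 15, 101254269 to 101274795) had a high naive level. It was called higher than naive at 48 h in wt and KI cells, and at 24 h in neither. Its wt values were 78, 140 and 70 CPM naive, 73.7, 148 and 166 CPM at 24 h, and 178, 336 and 285 CPM at 48 h. KI libraries held 95, 135 and 75.8 CPM naive, 145, 122 and 170 CPM at 24 h, and 138, 268 and 321 CPM at 48 h. The 24 h values overlapped the naive ones in both genotypes, whereas at 48 h no library fell inside the naive range of its genotype. Nr4a1 rose at 48 h in wt cells (1.47 ± 0.372, adjusted p = 0.00252) and in KI cells (1.25 ± 0.37, adjusted p = 0.00923), the latter not without KI replicate 5 (adjusted p = 0.163). The step from 24 h to 48 h in wt cells was 1.05 ± 0.368 (adjusted p = 0.0953, and 0.0466 with a replicate block for mouse). In KO libraries the values went from 165 and 79 CPM to 243 and 281 CPM (1.11 ± 0.451, adjusted p = 0.0542, and 0.0487 and 0.021 with a replicate block for experiment and mouse).

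Nr4a3 (ENSMUSG00000028341, chromosome 4, 48045153 to 48086447) moved the most of the 5 transcription factors. Naive libraries of all genotypes lay between 11.8 and 17.6 CPM. Wt libraries of experiments 1, 3 and 5 held 63.3, 143 and 114 CPM at 24 h and 463, 586 and 460 CPM at 48 h, and KO libraries held 456 and 442 CPM at 48 h. KI libraries held 80.4, 87.5 and 66.6 CPM at 24 h and 113, 292 and 222 CPM at 48 h. All stimulated libraries lay above all naive ones, and at 48 h all KI libraries lay below all wt and KO libraries. Nr4a3 in wt cells rose 8.03-fold by 24 h (3.01 ± 0.298 on the log2 scale, adjusted p = 2e-07) and 37.9-fold by 48 h (5.24 ± 0.329, adjusted p = 4.53e-10). In KI cells it rose 6-fold (2.58 ± 0.293, adjusted p = 1.61e-06) and 16.1-fold (4.01 ± 0.311, adjusted p = 8.14e-09), and in KO cells 29-fold by 48 h (4.86 ± 0.396, adjusted p = 3.5e-08). It also rose between 24 h and 48 h, by 2.24 ± 0.287 in wt cells (adjusted p = 0.000289) and by 1.42 ± 0.28 in KI cells (adjusted p = 0.0101). The latter was not called without KI replicate 1, 3 or 5 (adjusted p = 0.0633, 0.119 and 0.322).

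Dusp1 (ENSMUSG00000024190, chromosome 17, 26505590 to 26508519, minus strand), a nuclear phosphatase that acts mainly on p38 and JNK, showed the deepest fall of the 10. Naive libraries held 186, 234 and 187 CPM in wt, 209, 243 and 164 CPM in KI and 227 and 189 CPM in KO mice. At 24 h, wt libraries held 7.32, 7.5 and 9.94 CPM and KI libraries 9.33, 10.2 and 12.7 CPM. At 48 h, Dusp1 stood at 7.02, 8.65 and 7.45 CPM in wt, 9.18, 9.75 and 11.4 CPM in KI and 7.97 and 7.15 CPM in KO libraries. The gene was thus low in every stimulated library and high in every naive library, and it was already at its low level by 24 h. Levels were 24.5-fold lower than naive in wt cells at 24 h (a log2 change of -4.61 ± 0.191, adjusted p = 1.25e-11) and 26.2-fold lower at 48 h (-4.71 ± 0.192, adjusted p = 7.89e-12). The fall within a mouse ran from -3.69 to -4.96 on the log2 scale over all mice and both times. A Dusp1 exon overlaps an exon of Ergic1 on the opposite strand, and Ergic1 was called higher in wt cells at 24 h (1.53 ± 0.136, adjusted p = 5.43e-08). Whether counting used strand is not given in the sources used here, so Dusp1 reads are uncertain to that extent.

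Dusp2 (ENSMUSG00000027368, chromosome 2, 127336159 to 127338376), known as PAC-1 from activated lymphocytes and a nuclear ERK and p38 phosphatase, fell more gradually. Wt libraries held 247, 250 and 378 CPM naive, 99.5, 113 and 114 CPM at 24 h, and 50.6, 67.5 and 74.8 CPM at 48 h. KI libraries held 227, 271 and 283 CPM, then 127, 95.2 and 146 CPM, then 65.3, 73.2 and 114 CPM. The 3 time points did not overlap in wt cells, whereas 24 h and 48 h overlapped in KI cells. In wt cells Dusp2 fell by 1.42 ± 0.244 (24 h, adjusted p = 0.000102), then by 2.18 ± 0.25 (48 h, adjusted p = 7.39e-07), and in KI cells by 1.08 ± 0.242 (adjusted p = 0.00163) and 1.63 ± 0.245 (adjusted p = 2.52e-05). The step from 24 h to 48 h in wt cells was -0.76 ± 0.241 (adjusted p = 0.0631), and it was called with a replicate block for experiment (0.0102) or mouse (0.017).

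Dusp4 (ENSMUSG00000031530, chromosome 8, 34807297 to 34819894), an inducible nuclear phosphatase, was the phosphatase that rose. Wt libraries held 5.49, 11.2 and 3.55 CPM naive, 13.2, 12.3 and 15.2 CPM at 24 h, and 37.3, 52.3 and 35.6 CPM at 48 h. KI libraries held 8.14, 9.99 and 2.88 CPM, then 12.7, 9.72 and 13.4 CPM, then 15.5, 21.7 and 31.6 CPM. At 48 h, libraries of every genotype lay above its naive ones, and the KO libraries, at 90.8 and 46.2 CPM against 12.3 and 3.72 CPM naive, included the highest value. Dusp4 rose by 48 h in wt (2.63 ± 0.486, adjusted p = 0.000162), KI (1.71 ± 0.472, adjusted p = 0.00582) and KO cells (3.09 ± 0.605, adjusted p = 0.000455). The KI call was lost without KI replicate 5 (adjusted p = 0.124), and the KO call with only KO libraries in the fit (0.0725). From 24 h to 48 h in wt cells it rose by 1.62 ± 0.467 (adjusted p = 0.0405), which was lost without wt replicate 1, 3 or 5 (0.253, 0.159 and 0.116) and without the filter on low counts (0.11). At 24 h in wt cells it was not called (1.01 ± 0.465, adjusted p = 0.0815), but was with a replicate block for experiment (0.0494) or mouse (0.0319).

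Dusp5 (ENSMUSG00000034765, chromosome 19, 53529109 to 53542431), a nuclear phosphatase specific for ERK, differed between experiments in naive cells. Naive wt libraries of experiments 1, 3 and 5 held 71.8, 133 and 38.2 CPM, naive KI libraries 98.1, 150 and 45.1 CPM, and naive KO libraries of experiments 1 and 5 held 119 and 47.5 CPM. Experiment 5 was thus the lowest in every genotype. Stimulated wt libraries held 43.8, 58.6 and 39.7 CPM at 24 h and 57.3, 58.1 and 65.1 CPM at 48 h, inside the naive range, and no call was made in wt or KO cells. KI libraries held 39.9, 32.5 and 40.3 CPM at 24 h and 27.7, 50.4 and 50.7 CPM at 48 h. Dusp5 fell in KI cells, with changes of -1.38 ± 0.418 by 24 h (adjusted p = 0.0136) and -1.19 ± 0.417 by 48 h (adjusted p = 0.0244). Neither fall was called without KI replicate 1 (adjusted p = 0.0659 and 0.177) or 3 (0.248 and 0.191), and the 48 h fall was also lost without the filter (0.0737) and with only KI libraries in the fit (0.0666). The response was not called different from that of wt cells (-0.61 ± 0.582 by 24 h with an adjusted p of 1, and -0.76 ± 0.582 by 48 h with one of 0.752). A Dusp5 exon overlaps an antisense gene, AC137853.2, so its counts carry the same uncertainty about strand as those of Dusp1.

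Dusp6 (ENSMUSG00000019960, chromosome 10, 99263231 to 99267489), a cytoplasmic phosphatase specific for ERK whose transcript is a common readout of ERK activity, was lower by 48 h in wt cells. Wt libraries held 56.7, 55.6 and 52 CPM naive, 29.2, 29.2 and 42.4 CPM at 24 h, and 14.4, 18.4 and 24.2 CPM at 48 h. KI libraries held 62.5, 55.1 and 47.5 CPM, then 38.9, 28.6 and 37.7 CPM, then 29.8, 26.7 and 55.2 CPM. The wt time points did not overlap, while the KI library of experiment 5 at 48 h stood at its naive level. Dusp6 fell by 48 h in wt cells (-1.53 ± 0.309, adjusted p = 0.000376) and in KO cells, which went from 60.8 and 53.6 CPM to 10.9 and 29.9 CPM (-1.48 ± 0.377, adjusted p = 0.00381). The KO fall was not called without KO replicate 1 (adjusted p = 0.129) or with only KO libraries in the fit (0.157). It was not called in KI cells at 48 h (-0.56 ± 0.302, adjusted p = 0.132), except under upper-quartile scaling (0.0436) and without KI replicate 5 (0.0298). At 24 h in wt cells the fall of 0.71 ± 0.303 had an adjusted p of 0.062, which was under the threshold in 8 of 12 alternatives, among them a replicate block for experiment (0.031) or mouse (0.038). In KI cells at 24 h the value was -0.65 ± 0.303 (adjusted p = 0.0973), called in 3 of 12 alternatives. The step from 24 h to 48 h in wt cells was -0.82 ± 0.304 (adjusted p = 0.114) and was called in 0 of 12 alternatives.

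**Figure D2:**
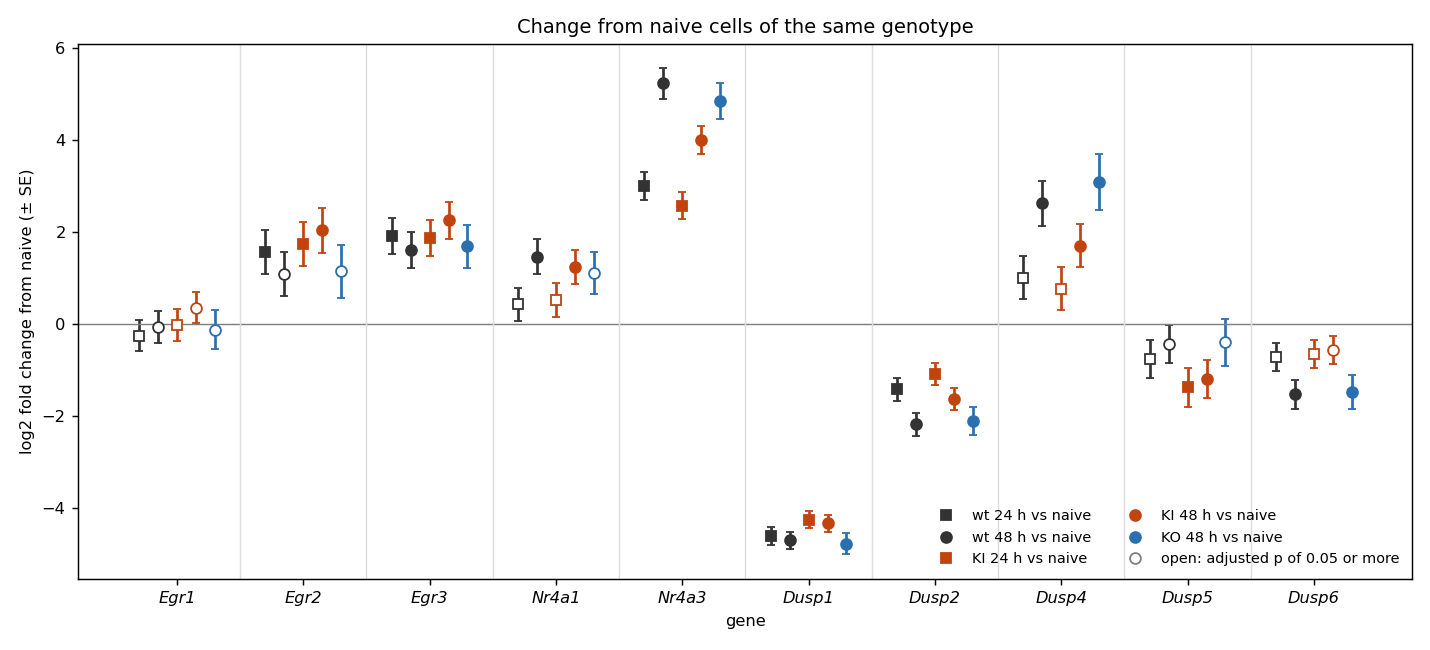
Log2 fold change from naive cells of the same genotype (vertical axis, ± SE) for each gene (horizontal axis), with squares for 24 h, circles for 48 h, colour for the genotype and open symbols where the adjusted p was 0.05 or more. Dusp1 lies between -4.26 and -4.78 in all 5 contrasts, and Nr4a3 between 2.58 and 5.24, where KI cells are the lower at both times.

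The order of levels among the genes was read from the deposited FPKM, which are per length. In naive wt cells Dusp2 led with a mean of 173 FPKM, followed by Dusp1 at 89.1, and then by Nr4a1 (46.3), Dusp5 (39.1), Egr1 (26.2) and Dusp6 (23.3), whose neighbours in the order overlapped. Egr3 (8.07 FPKM) stood above Egr2 (4.49), Dusp4 (2.94) and Nr4a3 (2.64). By 48 h the order in wt cells had changed at both ends, with Nr4a1 (120 FPKM) and Nr4a3 (93.9) on top and their ranges overlapping. Dusp2 followed at 35.9 FPKM, and the ranges of neighbours from Dusp2 down to Dusp6 (7.59 FPKM) overlapped. Dusp1, second in naive cells, was the lowest of the 10 at 3.19 FPKM. KI cells had the same first and last gene at 48 h (Nr4a1 at 109 and Dusp1 at 4.16 FPKM), and Nr4a3 stood at 38.8 FPKM, with its range overlapping those of Dusp2 (46.4) and Egr3 (34.5).

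**Figure D3:**
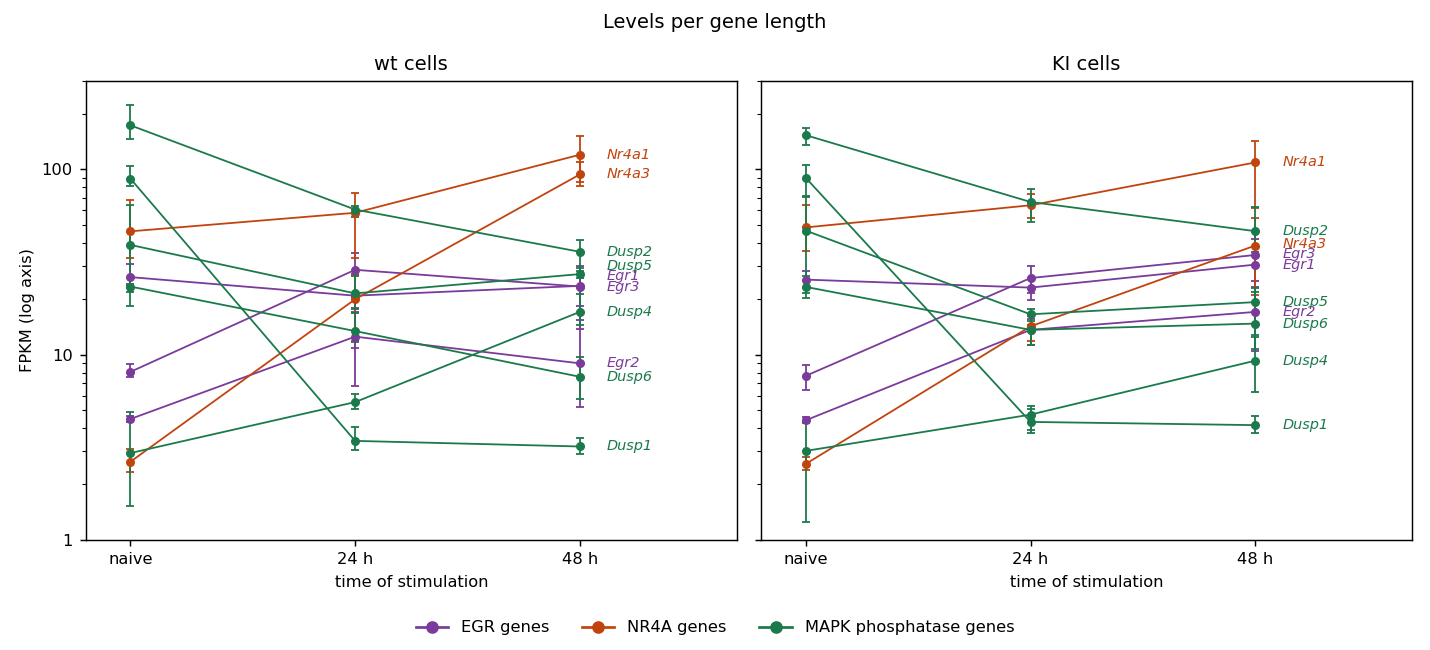
FPKM on a log axis for the 10 genes at each time in wt (left) and KI cells (right), where points are group means, bars run from the lowest to the highest library and colour marks the family. Dusp2 and Dusp1 lead in naive cells (173 and 89.1 FPKM in wt), and Nr4a1 leads at 48 h in both genotypes (120 and 109 FPKM).

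Between KI and wt cells, naive levels of the 10 genes were close. No member was called (0.113% of all genes were), none had an unadjusted p under 0.05, DESeq2 called 0, and the log2 differences ran from -0.16 (Dusp2) to 0.27 (Dusp5). At 24 h edgeR and DESeq2 again called 0 members, against 0.00472% of all genes, with 1 member at an unadjusted p under 0.05. Dusp1 at 24 h was higher in KI cells in 3 of 3 experiments, by 0.35 to 0.44 on the log2 scale (0.38 ± 0.167, adjusted p = 0.527). The experiment 1 pair stood apart at 24 h: KI minus wt was 1.15 for Egr1, 1.10 for Egr2, 0.87 for Egr3 and 0.97 for Nr4a1, whereas the experiment 3 and 5 pairs gave no value above 0.04 for these genes. In that experiment the wt library was the lowest wt library at 24 h for all 5 EGR and NR4A genes.

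At 48 h KI cells held less Nr4a3 than wt cells, and the other 9 genes did not pass the test. Nr4a3 was 2.4-fold lower (-1.27 ± 0.278 on the log2 scale, adjusted p = 0.0145), with a mean of 209 ± 90.1 CPM (SD, n = 3) against 503 ± 72.1 CPM (n = 3) in the edgeR comparison. Within experiments 1, 3 and 5 the differences were -2.03, -1 and -1.05, so 3 of 3 pairs were lower. The call held with a replicate block for experiment and was lost without KI replicate 1 (adjusted p = 0.145), without KI replicate 5 (0.0684) and with only the compared groups in the fit (0.104). Of all tested genes 1.89% were called lower and 2.28% higher in this comparison. These 884 genes became 91, 283 or 403 without KI replicate 1, 3 or 5, 116 or 577 without wt replicate 1 or 5, 109 with only the compared groups and 1714 with DESeq2. The difference in response from naive to 48 h was -1.24 ± 0.393 for Nr4a3, which was not called (adjusted p = 0.23).

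Other members differed in direction at 48 h without passing the test. The KI and wt libraries did not overlap for 5 of the 10 genes, lower in KI for Nr4a3, Dusp4 and Dusp5 and higher for Dusp1 and Dusp6, where 20.6% of all genes did not overlap. Dusp6 had the second smallest adjusted p (0.97 ± 0.305, adjusted p = 0.0814, and 0.0315 in DESeq2), and was 0.53 to 1.19 higher in 3 of 3 experiments. Dusp4 was lower in 3 of 3 experiments, by -1.27 to -0.17 (-0.86 ± 0.459, adjusted p = 0.342), and Dusp5 likewise, by -1.05 to -0.21 (-0.49 ± 0.412, adjusted p = 0.594). Egr2 was higher in 3 of 3 experiments by 0.73 to 1.29 (0.94 ± 0.472, adjusted p = 0.308), Egr3 by 0.35 to 0.82 (0.58 ± 0.379, adjusted p = 0.464), and Egr1 by 0.18 to 0.51 (0.39 ± 0.346, adjusted p = 0.616). Dusp1 (0.39 ± 0.168, adjusted p = 0.217) and Dusp2 (0.39 ± 0.24, adjusted p = 0.433) were also higher in each pair. How many of all genes kept the same sign in 3 of 3 pairs was not computed at any time. Nr4a1 was higher in 1 pair and lower in 2 (-0.14 ± 0.364, adjusted p = 0.892). The Nr4a1 ranges of 138 to 321 CPM in KI and 178 to 336 CPM in wt overlapped, and whether Nr4a1 and Nr4a3 differed from each other in this respect was not tested. B cell markers summed to 103 to 219 CPM in KI and 46.6 to 138 CPM in wt libraries at 48 h, with 0 of 6 markers called. The stromal list did not overlap at 48 h, at 146 to 196 CPM in KI and 86.5 to 92.2 CPM in wt libraries, and 1 of its 3 tested genes was called higher (median log2 difference 0.96). Nearly all of that sum is Pecam1, a gene that endothelial cells and also leukocytes express, while Col1a2 was at 0 in 5 libraries and Pdpn in 18. The 3 NK cell markers had a median difference of 2.16 with 0 called, at sums of 1.04 to 1.99 CPM in KI and 0.691 to 1.35 CPM in wt libraries. The part of these cells in the differences was not tested. These values share the wt 48 h libraries with the change from naive in wt cells.

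**Figure D4:**
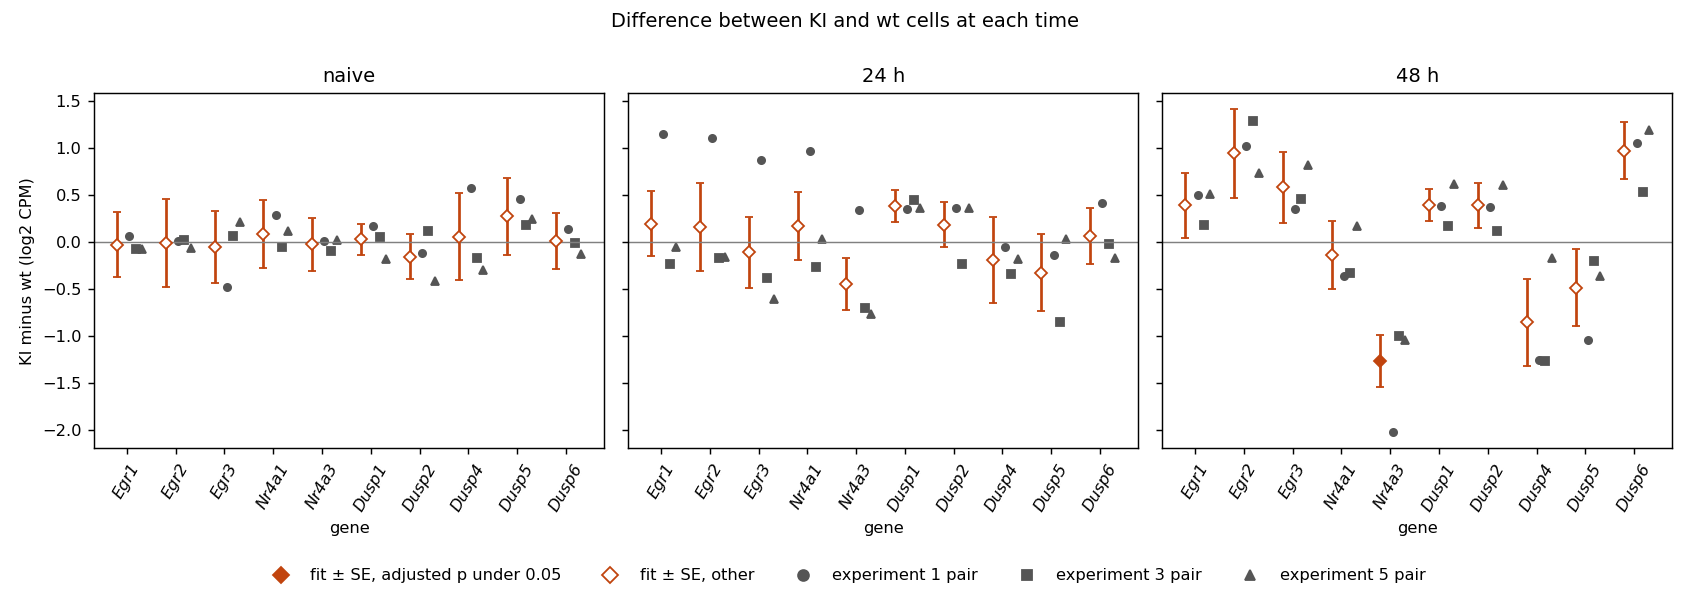
KI minus wt in log2 CPM (vertical axis) for each gene at each time, with diamonds for the fitted difference ± SE (filled where the adjusted p was under 0.05) and grey symbols for the pair of each experiment. Nr4a3 at 48 h is the only filled diamond (-1.27), and its 3 pairs lie between -2.03 and -1.

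Cells labelled KO were compared with the same wt libraries. No member was called in naive cells or at 48 h by edgeR or DESeq2 (0.0236% and 0.0283% of all genes were called by edgeR), and 0 members had an unadjusted p under 0.05 at either time. At 48 h Nr4a3 was at 456 and 442 CPM in KO libraries against 460 to 586 CPM in wt, just outside the wt range (-0.16 ± 0.308, adjusted p = 0.906). The 2 KO libraries at 48 h lay far apart for several genes, with experiment 1 at 9.36 and experiment 5 at 47.3 CPM for Egr2, 55.4 and 130 CPM for Egr1, and 47 and 86.9 CPM for Dusp2. The log2 difference of Egr3 between KO and wt cells at 48 h was 0.21 ± 0.421 with both KO mice (edgeR adjusted p = 0.911). It was -1.28 when KO replicate 5 was left out, which takes away both libraries of that mouse and leaves 1 KO library at 48 h. Markers of CD4 T cells also differed between these KO mice, at 175 CPM in experiment 1 and 31.6 CPM in experiment 5 at 48 h, and their part was not tested.

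No member's response to stimulation was called different between genotypes. The share of all genes called was 0% for KI against wt from naive to 24 h, 0.387% from naive to 48 h and 0% for KO against wt from naive to 48 h. DESeq2 also called 0 members in each, and 2 members (Nr4a3 and Dusp6) had an unadjusted p under 0.05 for KI from naive to 48 h. For Dusp6 that difference was 0.96 ± 0.428 (adjusted p = 0.467), and for Dusp4 it was -0.92 ± 0.652 (adjusted p = 0.722).

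Some members stood lowest in the same experiment in each genotype. The share of all genes that did so was not computed, and an effect of experiment was not tested. KO cells had 2 libraries per time, and the KI and wt mice of experiment 5 were female where the others were male. In naive cells Dusp4 was lowest in experiment 5 in all 3 genotypes (3.55, 2.88 and 3.72 CPM in wt, KI and KO, against 5.49 to 12.3 CPM in the other naive libraries), as were Dusp5 and Nr4a1. At 48 h the libraries of experiment 1 were the lowest of their genotype for Egr1, Egr2, Egr3 and Nr4a1 in wt, KI and KO cells alike. Experiment 1 held 15.7, 31.9 and 9.36 CPM of Egr2 and 178, 138 and 243 CPM of Nr4a1 in wt, KI and KO libraries.

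The remaining EGR and NR4A genes and the EGR corepressors Nab1 and Nab2 were followed as a list of 4. At 48 h in wt cells 3 were called higher and 1 lower, where 29.5% of all genes were called higher and 26.8% lower. Nr4a2, the remaining NR4A receptor, rose from 17.9 ± 10.3 to 81.9 ± 31.5 CPM (SD, n = 3) with a log2 fold change of 2.2 ± 0.469 (edgeR adjusted p = 0.000624), and it stood at 96.1 ± 35.1 CPM in KI cells at 48 h (0.23 ± 0.448 against wt, adjusted p = 0.846). Nab2 rose (0.75 ± 0.185, adjusted p = 0.00209) and Nab1 fell (-0.55 ± 0.121, adjusted p = 0.000901). Egr4 was near its detection limit in naive cells and still under 1 CPM in wt cells at 48 h. At that time Egr4 was higher in KI than in wt cells, at 3.37 ± 1.23 against 0.583 ± 0.129 CPM (2.53 ± 0.704, edgeR adjusted p = 0.0485). It was the 1 call of this list between genotypes. Calls of single genes other than the members, here and in the lists below, were not followed under the alternatives.

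Of 32 other immediate-early genes, 2 were called higher and 23 lower in wt cells at 24 h, with a median of -1.76 on the log2 scale. The shares of all genes at 24 h were 26.3% higher and 22% lower. Fos, the AP-1 subunit, fell by 6.65 ± 0.31 (from 334 to 3.31 CPM, adjusted p = 3.69e-11), and Klf4, a quiescence factor, fell by 4.37 ± 0.35 (adjusted p = 1.52e-08). Fosl1 (3.21 ± 0.531, adjusted p = 7.11e-05) and Myc (0.64 ± 0.187, adjusted p = 0.00905) rose. At 48 h 4 were higher and 22 lower, among the higher Bhlhe40 (2.24 ± 0.555, adjusted p = 0.00227) and among the lower Fosb (-5.02 ± 0.491, adjusted p = 1.04e-07). Dusp1 thus fell alongside most of this list, while Egr2, Egr3 and Nr4a3 were called in the other direction. Between KI and wt cells at 48 h, Btg2 (0.74 ± 0.18, adjusted p = 0.0239) and Zfp36l1 (0.66 ± 0.172, adjusted p = 0.0354) were higher and Gadd45b was lower (-1.09 ± 0.289, adjusted p = 0.0391). The sum of 10 heat shock genes, which can move with cell handling, was 942 to 1204 CPM in naive and 1529 to 2834 CPM in stimulated libraries. In wt cells at 24 h 5 of them were called higher and 4 lower, so the sum does not stand for each gene. Hspd1 (2.64 ± 0.236, from 107 to 668 CPM) and Hspe1 (1.62 ± 0.195) rose most. Hspa1a (-3.72 ± 0.822) and Hspa1b (-3.40 ± 0.784, from 4.71 to 0.445 CPM) fell most. The part of heat shock genes in the changes was not tested. Nor was that of cell isolation in the naive levels, from which the changes with stimulation are measured.

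Among 14 other dual-specificity phosphatases, 5 were called higher and 7 lower in wt cells at 48 h (median -0.77). The shares of all genes were 29.5% higher and 26.8% lower. Dusp14 rose from 0.112 to 2.29 CPM (4.35 ± 0.578, adjusted p = 4.49e-06) and Dusp9 from 0.169 to 0.877 CPM (2.37 ± 0.462, adjusted p = 0.00027). Dusp12 fell from 16.6 ± 0.991 to 5.34 ± 2.23 CPM in wt cells (-1.64 ± 0.285, adjusted p = 8.76e-05) and stood at 13.9 ± 2.71 CPM in KI cells at 48 h (1.38 ± 0.283 above wt, adjusted p = 0.00947). It was the 1 phosphatase of this list called between these genotypes, and 0 of the 5 Dusp genes described above were called. Of all genes 2.28% were called higher and 1.89% lower there, so these counts do not set the lists apart.

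Of 17 kinases and adaptors of the Ras-ERK cascade, 4 were called higher and 5 lower in wt cells at 48 h, and 0 between KI and wt cells. These shares lay near those of all genes at 48 h (29.5% higher and 26.8% lower). Ksr1, a scaffold of the cascade, rose by 1.16 ± 0.163 (adjusted p = 8.83e-06). Of 12 other feedback inhibitors of Ras-ERK signalling, 2 were higher and 6 lower in wt cells at 48 h. Spry1, which blocks Ras activation by receptors, rose from 2.62 to 25.8 CPM (3.30 ± 0.326, adjusted p = 1.2e-07) and was higher still in KI cells at 63 ± 25.2 CPM (1.29 ± 0.298 above wt, adjusted p = 0.0189). Rasa1, a Ras GTPase-activating protein, was the other gene called higher in KI cells (0.67 ± 0.12, adjusted p = 0.00407). Mapk14 (p38 alpha) was higher in KI cells by 0.34 ± 0.0905 (adjusted p = 0.0403) as 1 of 12 JNK and p38 genes. The calcineurin subunit Ppp3cb was lower by -0.46 ± 0.113 (adjusted p = 0.027) as 1 of 14 calcineurin, NFAT and MEF2 genes. No SRF or ternary complex factor gene (0 of 9) and no attenuator of receptor signalling (0 of 16) was called between them by edgeR. Of all genes 2.28% were called higher and 1.89% lower in KI against wt cells at 48 h.

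In wt cells at 48 h against naive, where 29.5% of all genes were called higher and 26.8% lower, 4 of 12 JNK and p38 genes were higher and 3 lower. Of 14 calcineurin, NFAT and MEF2 genes 1 was higher and 6 lower. Of 9 SRF and ternary complex factor genes 2 were higher and 4 lower. Crem, a CREB family factor of the same list, rose by 2.52 ± 0.28 (adjusted p = 4.86e-07). Among attenuators of the receptor 6 of 16 were higher and 4 lower, with the ubiquitin ligase Cblb higher (1.66 ± 0.304, adjusted p = 0.000151) and Dgka, which removes diacylglycerol, lower (-2.37 ± 0.215, adjusted p = 4e-08).

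The genes most like each member were found from the root mean square difference between gene-centred group means of log2 CPM over the 8 groups, among 10415 genes. Dusp1 was nearest to the AP-1 gene Fosb (0.22) and then Dtx1 (0.35), and Nr4a3 to Gtse1 (0.307) and the mitotic regulator Cdc20 (0.35). Egr2 was nearest to Mmd (0.143) and Egr3 to Snx9 (0.103), and among the 10 members Egr2 and Egr3 were nearest to each other (0.28). Dusp2 was nearest to Ccdc142 (0.0771), Dusp6 to Antxr2 (0.0842), Dusp4 to Pcgf5 (0.242) and Dusp5 to Casc4 (0.117). Nr4a1 was nearest to Gzf1 (0.115) and Egr1 to Ephx1 (0.0666). Within the members, Dusp2 and Dusp6 were nearest to each other (0.369), Nr4a3 was nearest to Dusp4 (0.957), and Dusp1 had no member nearer than Dusp2 (1.39).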

How the data were processed

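RNA of 22 libraries was analysed. The deposited table held raw counts for 46603 genes, and the symbols and positions of 21674 protein-coding genes came from the authors' other tables (85.3% to 88.5% of each library's counts). Per the submitters' processing notes the tools were bcl2fastq 2.20.0, TopHat2 2.1.0, Bowtie2 2.2.5, SAMtools 0.1.19, featureCounts and DESeq2 1.6.3, with GRCm38/mm10. Per the labels' protocols the library kit was stranded, and whether counting used strand is not given in the sources used here. The deposited log2 normalized values were recovered by scaling each library's counts by a single factor and adding 1 before taking logs (largest relative deviation 3.6e-14), and served to read symbols and positions. The deposited FPKM values were such normalized counts over 1 length per gene (largest spread 1.1e-14) and were used only to order genes by level. A further table of variance-stabilised values was not used, and there were 0 columns of other samples.

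Groups came from the labels. The 10 members and all gene lists were chosen with earlier results of these data known. Counts were filtered with filterByExpr (minimum count 10, total 15), scaled with TMM and fitted with edgeR 4.0.16 in R 4.3.3 as 8 group means over 22 libraries with robust estimates of the spread and 14 residual degrees of freedom. Tests were edgeR quasi-likelihood F tests with Benjamini-Hochberg adjustment over 21183 genes, called at an adjusted p under 0.05. Values after ± are the SE of a log2 difference or the SD of CPM. The named genes were all members, up to 2 called genes per direction, list and main comparison, and the 2 nearest genes of each member (root mean square difference). At least 1 of the latter is printed, and not every named gene of the lists is. Ergic1 is named for its overlap with Dusp1.

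Replicate numbers are experiments, and the labels name the shared experiment and mouse, so the numbers pair the libraries. Deviations from group means correlated with a median r of 0.22 over the 9 KI and wt pairs of 1 experiment and time (8 over 0.1), 0.153 over 18 pairs of 1 mouse, and -0.0953 over 90 pairs from other experiments. Replicate libraries were not duplicates (the lowest chi-square per degree of freedom was 15.4). Alternatives were DESeq2 1.42.0, other scaling, no filter, only the compared groups, a replicate block and leaving out each mouse. A fit without the robust estimate was added after seeing the data. GENCODE M21 held 99.6% of listed genes, 97.5% of them with the same start. Egr1 was left out of the promoter search, and no promoter window was found for Egr3 and Dusp4.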

Additional observations from a re-analysis of the deposited data

How the results depend on the processing

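Each comparison was refitted under the alternatives. Of 1950 single-gene values under alternatives, 1870 were counted as the same. These stayed on their side of the threshold and kept their direction or, where not called, changed sign by less than the SE. Of the rest, 32 passed the threshold newly and 27 lost it. A further 20 moved, meaning a larger change of sign without a call, and 1 reversed, meaning a change of sign with a call. The reversed value was Egr3 in KO against wt cells at 48 h, which was -1.28 to 0.928 when a mouse was left out. The count of members called between 24 h and 48 h in wt cells was 2, and it was 1 with no filter on low counts, 4 with DESeq2, 4 with the replicate block for mouse (3 with that for experiment), and 1 in each fit that left out a wt mouse. In KI cells the count from 24 h to 48 h was 1, and it was 2 with only the compared groups and 0 in each fit that left out a KI mouse. For KO cells at 48 h against naive it was 6, and 3 with only the compared groups. For KI against wt cells at 48 h it was 1, with 0 in a fit of only the compared groups, 2 with DESeq2 and 0 to 1 when mice were left out. For KO against wt cells at 48 h it was 0, and 0 to 1 when mice were left out. The causes of these shifts were not tested, except that fits of only the compared groups or without a mouse hold fewer libraries. The replicate block moved no other count of called members by over 1.5 times. Fits without KO replicate 1 or 5 leave 1 KO mouse, assumed to vary like the other groups. The fit without the robust estimate, added after seeing the data, gave the same counts. Groups held 2 or 3 mice, and p-values of the main fit rest on a spread pooled over the libraries of all 8 groups. That fit held no term for mouse, so libraries of 1 mouse counted as independent. A difference that was not called is not shown to be absent. Counts over all genes moved too. From 24 h to 48 h in KI cells they were 567, and 0 without KI replicate 1 or 5, 157 without KI replicate 3, 1256 with DESeq2 and 1362 with only the compared groups. For KI cells at 24 h they were 8203, and 5038 or 4861 without KI replicate 1 or 3. For KO cells at 48 h against naive they were 9314, and 1190 with only the compared groups. For the difference in response between KI and wt cells to 48 h they were 82, and 1 to 360 over the alternatives, with 185 under the replicate block for mouse. The KO against wt difference in response was called for 0 genes, and for 1355 without KO replicate 5. Naive KI against wt cells gave 24 genes, with 3 to 83 over the alternatives, and 24 h cells gave 1, with 56 in DESeq2.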
